A study of Homo sapiens with 6 samples.

Results

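The genes described here are 33 genes of cholesterol and fatty acid synthesis, out of 59608 genes in the RNA-seq count table of HepG2 cells carrying either form of VEZF1. They were picked by name as genes of the sterol and fatty acid synthesis programme, and all 33 were found in the table. Earlier results of these data were known when they were picked, so the list is not independent of the measured values. VEZF1 is a zinc finger transcription factor that carries the sugar O-GlcNAc, and HepG2 is an established human hepatocellular carcinoma cell line. In the cells of all 6 libraries endogenous VEZF1 had been silenced with an sgRNA delivered by lentivirus. A VEZF1 transgene was then put back, either wild type (VEZF1-WT, n = 3 libraries) or VEZF1-2A (n = 3 libraries). In VEZF1-2A, adjacent serines that carry O-GlcNAc are changed to alanine, while other potential sites listed in the paper are kept. The comparison therefore asks what loss of the changed serines does in cells that carry re-expressed VEZF1. Cells without the transgene and unedited cells were not analysed here. Whether the silenced cells were 1 clone or a pool, and whether the libraries of a group came from separate cultures, is not given in the sources used here, so the p-values measure the spread between these libraries, which may be technical.

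Cells make cholesterol from acetyl-CoA through the mevalonate pathway, which leads to squalene, lanosterol and then cholesterol, and they make fatty acids from the same acetyl-CoA through malonyl-CoA. Both arms are switched on by the sterol regulatory element binding proteins, which are encoded by SREBF1 and SREBF2. These factors are held in the endoplasmic reticulum membrane and, when sterols are scarce, are escorted by SCAP to the Golgi, where proteases release the part that enters the nucleus, while INSIG1 and INSIG2 retain SCAP when sterols are plentiful. The liver is a main site of both pathways, and genes of the programme are known to rise and fall together with the sterol supply of a culture.

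Compared by group alone, no gene of the programme passed the test between VEZF1-WT and VEZF1-2A. In the quasi-likelihood test of edgeR, 0 of the 32 members that passed the filter on low counts had an unadjusted p under 0.05, where 2.13% of all 19111 genes tested did, and 0 had an adjusted p under 0.05, where 0% of all genes did. DESeq2 gave 2 members with an unadjusted p under 0.05 (0.607% of all genes), limma voom 0 (2.26%), and edgeR with no filter on low counts 11, all higher in VEZF1-WT (2.31%). When edgeR was run with an added term for the replicate number (replicate block), 14 members had an unadjusted p under 0.05, all higher in VEZF1-WT (4.32% of all genes). The replicate numbers were not shown to pair the libraries. None of these alternatives gave a member with an adjusted p under 0.05. The differences were small and mostly of 1 sign. The log2 fold change (VEZF1-WT over VEZF1-2A) was above 0 for 29 of the 32 members, against 50.1% of all genes, with a median of 0.11 and a range from -0.16 to 0.26, where the median over all genes was 0.00035. These counts changed when single libraries were left out. Without VEZF1-WT replicate 3 the log2 fold change was above 0 for 18 of 32 members, with a median of 0.02, and without VEZF1-2A replicate 1 it was above 0 for 24, with a median of 0.07. The number with an unadjusted p under 0.05 was 16 without VEZF1-2A replicate 3, when 4.89% of all genes passed, and 6 without VEZF1-WT replicate 2, when 2.41% did. Replicate 3 was the highest library within both groups for 28 of the 32 members, so leaving out only 1 of these libraries unbalances the groups. With both left out, in a fit with the replicate block chosen after seeing the data, 29 of 32 members were above 0, with a median of 0.11. The same kind of fit gave 26 of 32 without replicate 1 (median 0.10) and 30 of 32 without replicate 2 (median 0.17). Why the counts fell when single libraries were left out was not tested.

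**Figure D1:**
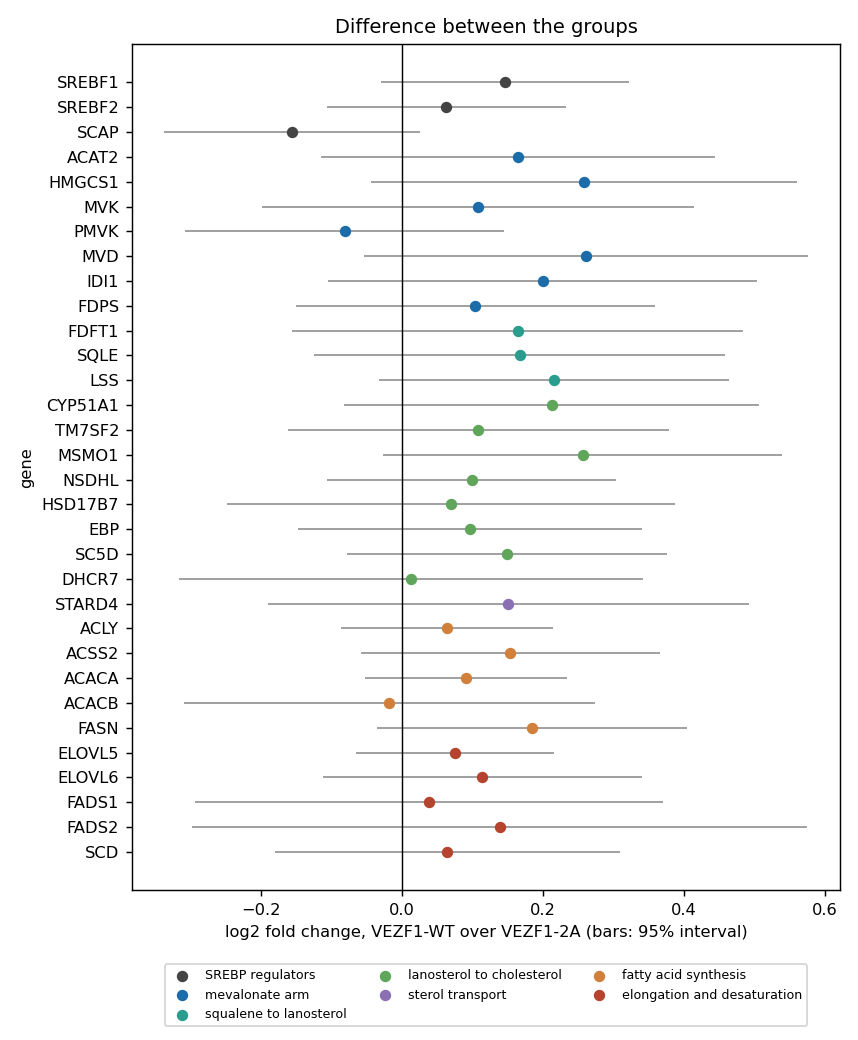
Log2 fold change of each member (VEZF1-WT over VEZF1-2A, x axis) with its 95% confidence interval, ordered by role in the pathway. Of the 32 members tested, 29 lie above 0, and every interval includes 0.

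The 6 libraries held 28756765 to 57199396 counts, and the members took from 0.274% to 0.379% of them. The deepest library was VEZF1-WT replicate 3 and the shallowest was VEZF1-2A replicate 1. Hepatocyte genes were abundant in all of them, with albumin (ALB) between 2813 and 3672 CPM (counts scaled to a common library size with TMM factors), while the leukocyte gene PTPRC and the fibroblast gene COL1A2 did not exceed 0.121 CPM. Of the other markers of foreign cells, PECAM1, VWF and COL1A1 lay between 0.225 and 3.71 CPM and CD68, which tumour cells can also express, between 112 and 185 CPM. Reads on VEZF1, in which endogenous and re-expressed RNA cannot be told apart, were at 59.3, 45.6 and 40.0 CPM in VEZF1-WT replicates 1 to 3 and at 46.2, 48.6 and 38.9 CPM in VEZF1-2A (log2 fold change 0.12 ± 0.13 SE, unadjusted p = 0.407, edgeR quasi-likelihood).

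Levels can be compared between genes per kilobase of exon (RPKM). The most abundant member by mean RPKM over the 6 libraries was SCD, the desaturase that makes oleate, at 108 RPKM. It was followed by ACAT2, the cytosolic thiolase that opens the mevalonate pathway, at 78.3 RPKM, by ACLY, which supplies cytosolic acetyl-CoA from citrate, at 56.8 RPKM, by HMGCS1 at 45.5 RPKM and by FASN at 37.5 RPKM. ACAT2 shares 17.2% of its exon length with TCP1 on the opposite strand, and the strand setting of the counts is not given. Its level may therefore include reads of TCP1. The regulators were lower, with SREBF2 at 5.53, SREBF1 at 3.51 and SCAP at 1.89 RPKM. Of the acetyl-CoA carboxylases, ACACA was at 5.81 RPKM and ACACB, the mitochondrial form, at 0.549 RPKM. TM7SF2, a sterol reductase whose step LBR can also carry out, was at 1.14 RPKM.

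**Figure D2:**
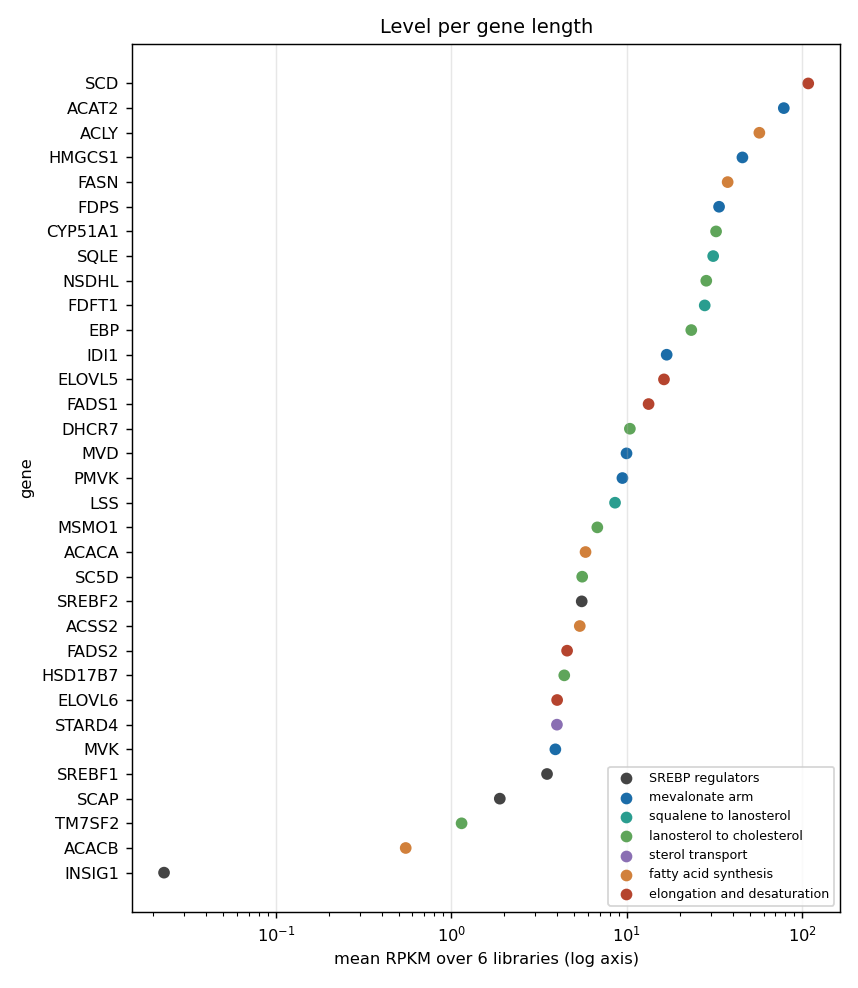
Mean RPKM of each of the 33 members over the 6 libraries (x axis, log scale), with genes in order of level on the y axis and points coloured by role. The levels run from SCD at 108 RPKM to ACACB at 0.549 RPKM and INSIG1 at 0.0231 RPKM.

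Among the regulators, SREBF2 (chr22:41833079-41907307, plus strand, GRCh38), the main activator of the sterol arm, measured 40.2, 40.9 and 46.9 CPM in VEZF1-WT replicates 1 to 3 and 38.4, 41.5 and 42.7 CPM in VEZF1-2A. The groups overlapped, and the log2 fold change was 0.06 ± 0.08 (SE, n = 3 per group, edgeR unadjusted p = 0.426). SREBF1 (chr17:17810399-17837011, minus strand), the main activator of the fatty acid arm, measured 29.05, 28.7 and 33.3 CPM in VEZF1-WT and 27.2, 26.1 and 29.1 CPM in VEZF1-2A. Its groups overlapped at 1 VEZF1-2A library, replicate 3, which lay above VEZF1-WT replicates 1 and 2 (log2 fold change 0.15 ± 0.08 SE, edgeR unadjusted p = 0.0945).

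SCAP (chr3:47413681-47477126, minus strand) was the member with the lowest log2 fold change. It measured 10.9, 11.4 and 11.4 CPM in VEZF1-WT and 12.5, 12.4 and 12.6 CPM in VEZF1-2A, so that every VEZF1-WT library lay below every VEZF1-2A library. The log2 fold change of -0.16 ± 0.08 (SE, n = 3 per group) had an unadjusted p of 0.0852 in edgeR and an exact two-sided permutation p of 0.1, the smallest that 3 libraries against 3 can give. Groups that did not overlap were found for 2 of the 32 members, SCAP and TM7SF2, where 7.36% of all genes tested had such groups. TM7SF2 was named after its values were seen, and its 3 VEZF1-WT libraries lay above the 3 VEZF1-2A libraries (4.07 ± 0.06 against 3.78 ± 0.10 CPM, SD, n = 3 per group). Among all genes 3.5% had groups apart in that direction.

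INSIG1 (chr7:155297776-155310235, plus strand) had almost no counted reads. Its raw counts in replicates 1 to 3 were 4, 0 and 8 for VEZF1-WT and 2, 6 and 2 for VEZF1-2A. It was therefore the member that did not pass the filter, and no fold is given. The 5 nearest genes on either side in the table, chosen after the value of INSIG1 was seen, had 0 to 2 counts per library. Apart from BLACE they have only clone-based names, and whether HepG2 cells express them is not known here. Their counts therefore do not show whether reads map to this region. Whether the low count of INSIG1 reflects little INSIG1 RNA or how reads were mapped and counted was not tested.

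In the mevalonate arm 6 of 7 members had a log2 fold change above 0, none passed the test, and the median was 0.16. HMGCS1 (chr5:43287470-43313512, minus strand), the synthase that makes HMG-CoA, shares 37.7% of its exon length with AC114947.2 on the opposite strand. It measured 299.5, 291 and 394 CPM in VEZF1-WT and 231, 265 and 327 CPM in VEZF1-2A. VEZF1-2A replicate 3 lay above VEZF1-WT replicates 1 and 2, so the groups overlapped (log2 fold change 0.26 ± 0.14 SE, edgeR unadjusted p = 0.0856). MVD (chr16:88651935-88663161, minus strand), the decarboxylase that yields isopentenyl pyrophosphate, measured 47.0, 44.8 and 61.7 CPM in VEZF1-WT and 35.9, 40.9 and 51.3 CPM in VEZF1-2A. Its log2 fold change of 0.26 ± 0.14 (SE) was the largest of the members, with an edgeR unadjusted p of 0.0938 and with VEZF1-2A replicate 3 again inside the VEZF1-WT range. IDI1 (chr10:1039152-1049170, minus strand), the isomerase of that product, measured 69.6, 69.9 and 95.2 CPM in VEZF1-WT and 61.8, 61.5 and 81.3 CPM in VEZF1-2A (log2 fold change 0.20 ± 0.14 SE, edgeR unadjusted p = 0.175). The others were ACAT2, MVK, FDPS and PMVK, with log2 fold changes of 0.16, 0.11, 0.10 and -0.08.

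From squalene to lanosterol all 3 members had a log2 fold change above 0, none passed the test, and the median was 0.17. SQLE, the squalene epoxidase, measured 133, 125 and 166 CPM in VEZF1-WT and 106, 119.6 and 151 CPM in VEZF1-2A (log2 fold change 0.17 ± 0.13 SE, edgeR unadjusted p = 0.231). LSS (chr21:46188141-46228824, minus strand), which closes the ring to give lanosterol, measured 61.6, 60.8 and 77.1 CPM in VEZF1-WT and 51.6, 54.2 and 66.2 CPM in VEZF1-2A (log2 fold change 0.22 ± 0.11 SE, edgeR unadjusted p = 0.0821). For both genes VEZF1-WT replicate 3 was the highest library and VEZF1-2A replicate 1 the lowest, and VEZF1-2A replicate 3 exceeded the other VEZF1-WT libraries. FDFT1, which makes squalene, had a log2 fold change of 0.16.

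From lanosterol to cholesterol all 8 members had a log2 fold change above 0, none passed the test, and the median was 0.10. MSMO1 (chr4:165327667-165343164, plus strand), the methylsterol oxidase, had the smallest p of all members. It measured 20.0, 18.8 and 24.3 CPM in VEZF1-WT and 15.4, 16.7 and 20.9 CPM in VEZF1-2A (log2 fold change 0.26 ± 0.13 SE, edgeR unadjusted p = 0.0712). CYP51A1 (chr7:92112153-92134803, minus strand), the lanosterol demethylase, measured 114, 109.8 and 142 CPM in VEZF1-WT and 89.7, 97.6 and 129 CPM in VEZF1-2A (log2 fold change 0.21 ± 0.13 SE, edgeR unadjusted p = 0.139). Of its exon length, 80.6% is shared with the gene AC000120.3 on the same strand, so reads counted on either cannot be told apart. DHCR7 (chr11:71428193-71452868, minus strand), the reductase of 7-dehydrocholesterol, measured 41.2, 35.4 and 52.3 CPM in VEZF1-WT and 36.6, 40.0 and 51.4 CPM in VEZF1-2A. Its log2 fold change of 0.01 ± 0.15 (SE) was the closest to 0 among the members, while the highest library stood 1.48 times above the lowest. The remaining members TM7SF2, NSDHL, HSD17B7, EBP and SC5D had log2 fold changes from 0.07 to 0.15, as had the sterol carrier STARD4 at 0.15. EBP shares 36.4% of its exon length with AF196969.1 on the same strand.

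In acetyl-CoA supply and fatty acid synthesis 4 of 5 members had a log2 fold change above 0, none passed the test, and the median was 0.09. FASN (chr17:82078338-82098294, minus strand), the fatty acid synthase, measured 362, 327 and 426 CPM in VEZF1-WT and 309, 307 and 365 CPM in VEZF1-2A (log2 fold change 0.18 ± 0.10 SE, edgeR unadjusted p = 0.0906). ACACA (chr17:37084992-37406836, minus strand), the carboxylase that makes malonyl-CoA, measured 77.9, 73.3 and 82.8 CPM in VEZF1-WT and 70.7, 72.6 and 76.6 CPM in VEZF1-2A (log2 fold change 0.09 ± 0.06 SE, edgeR unadjusted p = 0.188). In both genes the groups overlapped. ACLY, ACSS2 and ACACB had log2 fold changes of 0.06, 0.15 and -0.02.

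In elongation and desaturation all 5 members had a log2 fold change above 0, none passed the test, and the median was 0.08. SCD (chr10:100347233-100364826, plus strand) measured 575, 501 and 659 CPM in VEZF1-WT and 471, 579 and 609 CPM in VEZF1-2A (log2 fold change 0.06 ± 0.11 SE, edgeR unadjusted p = 0.571). FADS1 (chr11:61799627-61829318, minus strand), the delta-5 desaturase, measured 134, 118 and 161 CPM in VEZF1-WT and 107, 129 and 166 CPM in VEZF1-2A (log2 fold change 0.04 ± 0.15 SE, edgeR unadjusted p = 0.800). FADS2 (chr11:61792980-61867354, plus strand), the delta-6 desaturase, measured 44.8, 42.9 and 63.5 CPM in VEZF1-WT and 33.8, 43.2 and 60.5 CPM in VEZF1-2A (log2 fold change 0.14 ± 0.20 SE, edgeR unadjusted p = 0.496). In all 3 desaturases the spread within each group was larger than the distance between the groups, and in FADS1 the highest library was a VEZF1-2A library. FADS1 and FADS2 share 490 bases of exon on opposite strands, and ELOVL5 and ELOVL6 had log2 fold changes of 0.08 and 0.11.

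**Figure D3:**
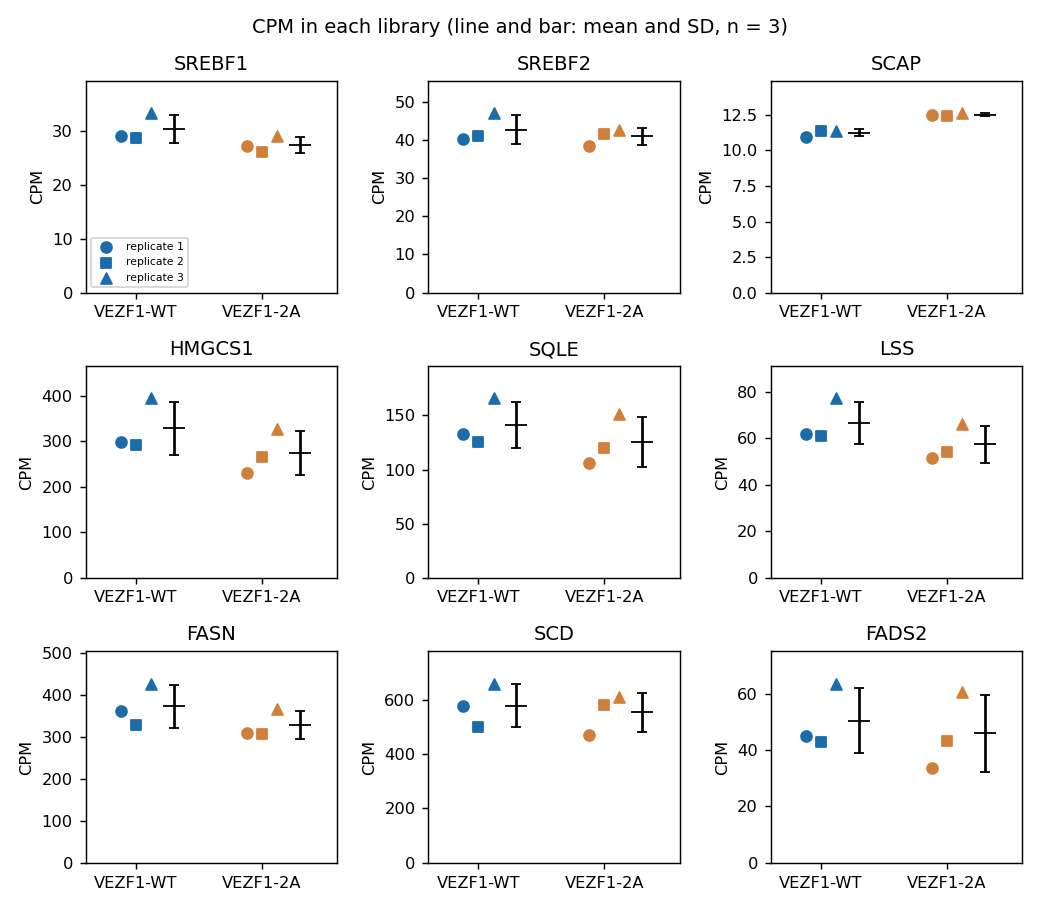
CPM of 9 members in each library (y axis), by group (x axis, VEZF1-WT and VEZF1-2A, n = 3 each), with symbols for the replicate number and the group mean and SD beside them. Replicate 3 is the highest library of both groups in every panel, and in the SCAP panel all VEZF1-2A libraries (12.4 to 12.6 CPM) lie above all VEZF1-WT libraries (10.9 to 11.4 CPM).

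Within each group the members varied together from library to library. For each gene the deviation of log2(CPM + 0.1) from its own mean over the 6 libraries was taken. The median deviation of the 32 members was 0.01, -0.05 and 0.27 in VEZF1-WT replicates 1 to 3 and -0.22, -0.11 and 0.12 in VEZF1-2A replicates 1 to 3, while the medians over all genes were at most 0.0083 in any library. In VEZF1-WT replicate 3, 29 of 32 members lay above their own mean, in VEZF1-2A replicate 3 30 did, in VEZF1-WT replicate 1 18 did, and in VEZF1-WT replicate 2 and VEZF1-2A replicates 1 and 2 the numbers were 4, 2 and 4. Replicate 3 was thus the high library of both groups.

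VEZF1-WT replicate 3 was the highest of the 6 libraries for 28 of 32 members (87.5%), against 16.8% of all genes tested and 18.6% of the 11068 genes with a mean of at least 5 CPM. VEZF1-2A replicate 1 was the lowest for 21 members (65.6%), against 18.0% of all genes. Replicate 3 was the highest library within each group at once for 28 members (87.5%), against 20.0% of all genes and 24.7% of those with at least 5 CPM. For 25 members (78.1%) both replicate 3 libraries lay above the other 4, against 15.4% of all genes and 20.1% of those with at least 5 CPM. These shares describe the libraries and carry no test, since the libraries were singled out after their values were seen. The ratio of the highest to the lowest library had a median of 1.41 over the members, against 1.19 over genes with at least 5 CPM, and ran from 1.12 for TM7SF2 to 1.88 for FADS2.

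**Figure D4:**
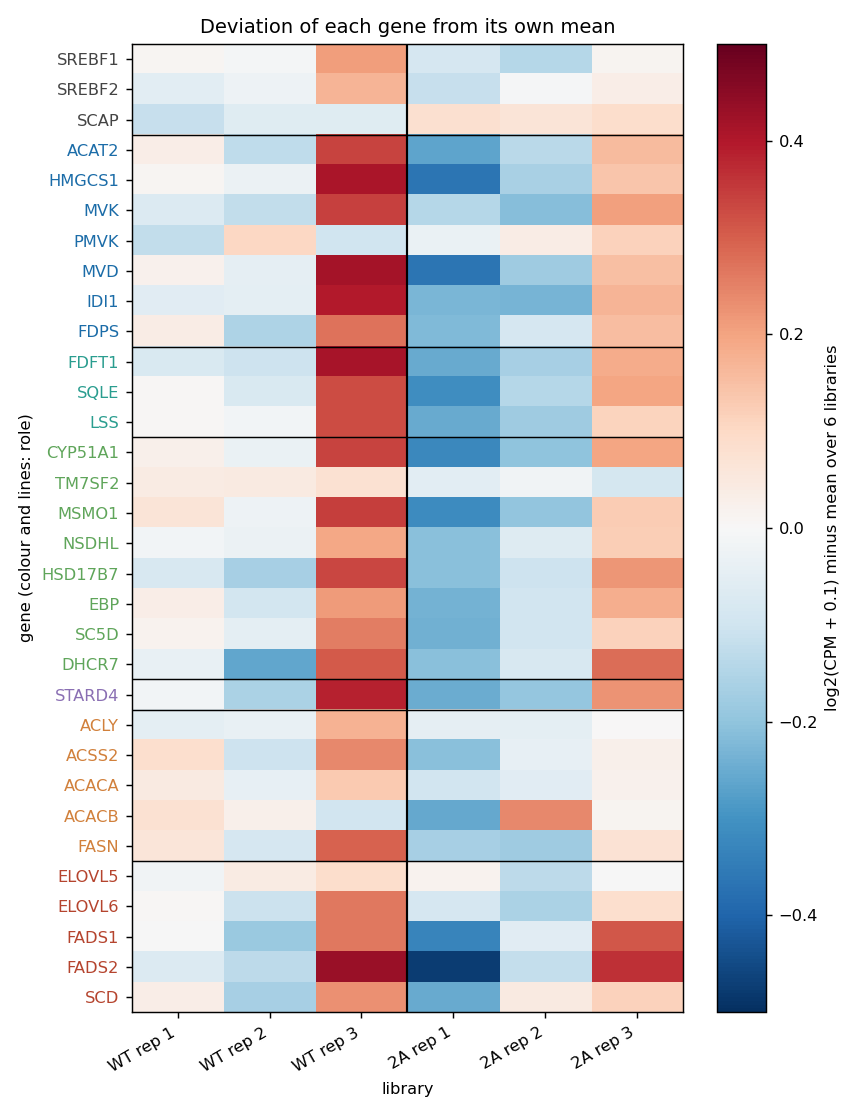
Heat map of the deviation of log2(CPM + 0.1) from each gene's own mean over the 6 libraries, with the 32 members tested in rows by role and the libraries in columns (red above the mean, blue below it). The members' median is 0.27 in VEZF1-WT replicate 3 and 0.12 in VEZF1-2A replicate 3, and it is -0.22 in VEZF1-2A replicate 1.

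In each arm the median deviation was highest in VEZF1-WT replicate 3. The mevalonate arm had median deviations of 0.34 in VEZF1-WT replicate 3, 0.15 in VEZF1-2A replicate 3 and -0.23 in VEZF1-2A replicate 1. Squalene to lanosterol had 0.33, 0.18 and -0.25 in these libraries, lanosterol to cholesterol 0.28, 0.15 and -0.22, and elongation and desaturation 0.26, 0.11 and -0.25. In acetyl-CoA supply and fatty acid synthesis the values were smaller, at 0.18, 0.02 and -0.17. The regulators had 0.17, 0.03 and -0.08. The members whose highest library was not VEZF1-WT replicate 3 were PMVK, SCAP, FADS1 and ACACB, named after their values were seen. PMVK, SCAP and FADS1 were highest in VEZF1-2A replicate 3, at 10.2, 12.6 and 166 CPM, and ACACB was highest in VEZF1-2A replicate 2, at 9.37 CPM.

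Other measurements moved with these libraries. Of the 8 hepatocyte markers, 5 (AFP, FGB, TTR, APOA1 and TF) were highest in replicate 3 of both groups. ALB, SERPINA1 and HNF4A were highest in VEZF1-WT replicate 3 and in VEZF1-2A replicate 2, though HNF4A was nearly level in VEZF1-WT, at 134, 133 and 135 CPM. AFP, the fetal serum protein of liver cancer cells, measured 1928, 2043 and 3643 CPM in VEZF1-WT and 1763, 2065 and 3482 CPM in VEZF1-2A. The fibrinogen chain FGB was also highest in both replicate 3 libraries, at 460.1, 420.1 and 804 CPM in VEZF1-WT and 357, 435 and 735 CPM in VEZF1-2A. CD68 ran the other way, at 145, 172 and 112 CPM in VEZF1-WT and 163, 185 and 116 CPM in VEZF1-2A, and VEZF1 itself was lowest in replicate 3 of either group. Library depth was highest in VEZF1-WT replicate 3 and lowest in VEZF1-2A replicate 1, and VEZF1-2A replicate 3 was of intermediate depth at 33966492 counts. The part of depth, of VEZF1 level and of these other genes in the members' pattern was not tested.

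Other genes of the pathway were compared in the same way. From 37 further genes of sterol sensing, sterol handling and fatty acid and glycerolipid metabolism, 34 passed the filter. Of these 17 had a log2 fold change above 0 and 17 below, with a median of 0.002, and 0 had an unadjusted p under 0.05, the smallest being that of LPIN1, the phosphatidate phosphatase, at 0.0631 in edgeR. The signs differed by role, with 9 of 11 genes of isoprenoid branches and sterol handling above 0, 3 of 7 of sensing and processing, and 5 of 16 of fatty acid and glycerolipid metabolism. The medians of these roles were near 0, at 0.03, -0.02 and -0.03. With the replicate block, LPIN1 (higher in VEZF1-WT) and ACSL5 (lower) had an unadjusted p under 0.05, as had 4.32% of all genes. Replicate 3 was the highest library within both groups for 18 of the 34 (52.9%). VEZF1-WT replicate 3 was the highest of all libraries for 12 of them (35.3%).

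**Figure D5:**
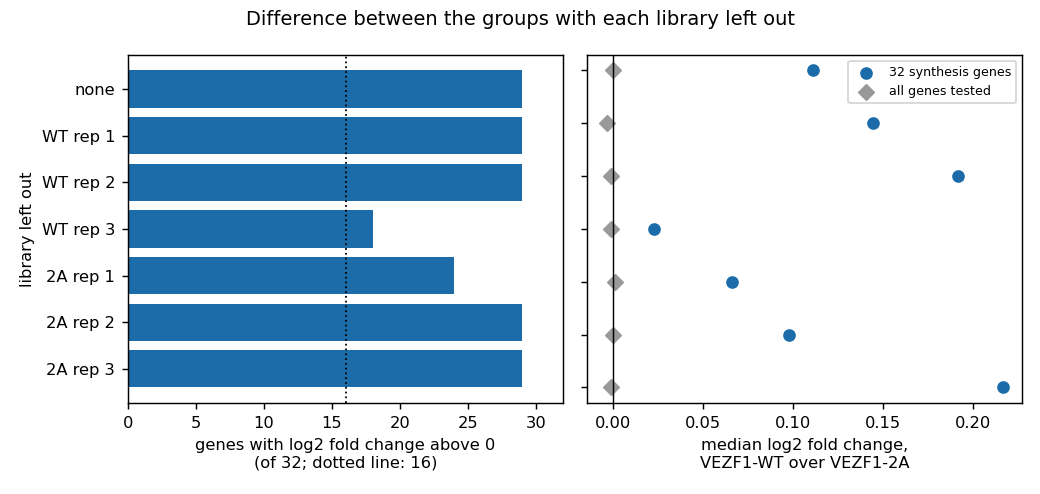
With all 6 libraries (none) and with each library left out in turn (y axis), the left panel shows how many of the 32 members had a log2 fold change above 0 and the right panel the median log2 fold change of the members (circles) and of all genes tested (diamonds). The number is 29 with all libraries and 18 without VEZF1-WT replicate 3, and the members' median runs from 0.02 to 0.22.

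Promoters of the members are shown because the members varied together between libraries. RefSeq windows on GRCh38.p14, from 250 bases before to 50 bases after each start, were at hand for 29 of the 33 members. ACAT2, FDFT1, SQLE and FASN were not among them. Sterol regulatory element binding proteins bind short sterol response elements, usually beside sites for NF-Y, which binds CCAAT, and for Sp1, which binds GC boxes. Both strands were searched for exact letters, a gene with several windows counted if any held the motif, and GGGCGG and GGGGGG can overlap each other. TCACNCCAC, a core of the sterol response element, was found in 1 of 29 members (3.45%), SREBF2, against 1.39% of 27305 genes. CCAAT was found in 23 members (79.3%) against 39.7% of genes, GGGCGG in 27 (93.1%) against 48.3%, CACGTG in 5 (17.2%) against 8.77%, and GGGGGG, of the kind of guanine run that VEZF1 binds, in 8 (27.6%) against 21.2%. These are matches of letters, and no match means only that these letters are not in the window. The 27305 genes were not limited to genes with reads in these libraries, and the shares among expressed genes alone were not computed.

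The parts of 3 windows upstream of the start of the gene as the count table gives it are printed from 5′ to 3′ on the strand of the gene, with TCACNCCAC and CCAAT (or ATTGG, its reverse complement) in capitals. SREBF2 is the regulator with the sterol response element core, and HMGCS1 and MVD are the members with the largest log2 fold changes. The windows are chr22:41832855-41833078 on the plus strand, chr5:43313513-43313662 on the minus strand and chr16:88663162-88663341 on the minus strand.
SREBF2: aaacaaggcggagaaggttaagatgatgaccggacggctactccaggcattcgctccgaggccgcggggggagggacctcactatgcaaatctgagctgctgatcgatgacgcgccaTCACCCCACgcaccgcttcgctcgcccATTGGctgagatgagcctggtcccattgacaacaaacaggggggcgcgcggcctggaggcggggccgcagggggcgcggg
HMGCS1: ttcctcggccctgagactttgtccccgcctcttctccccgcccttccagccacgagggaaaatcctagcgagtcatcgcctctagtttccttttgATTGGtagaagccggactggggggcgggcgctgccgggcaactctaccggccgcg
MVD: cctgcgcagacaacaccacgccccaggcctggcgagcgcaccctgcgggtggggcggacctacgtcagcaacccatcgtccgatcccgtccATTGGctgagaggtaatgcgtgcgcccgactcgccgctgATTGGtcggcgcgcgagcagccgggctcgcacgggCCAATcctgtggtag
In SREBF2 the core lies at position -133 from the RefSeq start and the CCAAT match at -106, while MVD holds 3 CCAAT matches and HMGCS1 1 in the stretches printed.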

How the data were processed

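RNA-seq libraries of HepG2 cells re-expressing VEZF1-WT or VEZF1-2A were compared, 3 of each, grouped by their titles. The authors deposited 1 table of raw read counts per gene, with gene positions and an exon length per gene (used only for RPKM). The submitters' notes name GRCh38, and positions match GENCODE release 29. The aligner, counting program and strand setting are not given in the sources used here, and 16 of the 32 members tested share exon positions with another gene. Of 59613 lines, 5 broken ones (ANK2) were left out. Between 65.7% and 67.5% of counts from 11 to 100 were even, so counts may not be independent.

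Low counts were removed with filterByExpr (at least 10 counts, total at least 15). After TMM scaling, the quasi-likelihood test (glmQLFTest on glmQLFit, two-sided) of edgeR 4.0.16 in R 4.3.3 was run with group as the sole term, with Benjamini-Hochberg adjustment over 19111 genes. Standard errors follow from the log2 fold change and the F statistic. The exact permutation test used log2(CPM + 0.1). Alternatives were DESeq2 1.42.0, limma 3.58.1 voom, other scalings, no filter, a replicate block, each library left out and mitochondrial genes left out. The fit was tested on simulated counts. Figures were drawn with matplotlib 3.10.9.

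The members and lists were chosen with earlier results of these data known. Values per library are given for the regulators, for 10 steps of the pathway, for the 5 members with the smallest p and for the 5 with the largest absolute log2 fold change. Other members are given by counts and ranges.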

Additional observations from a re-analysis of the deposited data

How the results depend on the processing

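The number of members with an adjusted p under 0.05 was 0 under every alternative run, and the median log2 fold change stayed above 0, from 0.02 to 0.22. Other scalings, limma voom, a threshold of 0.01 and leaving out mitochondrial genes left the number with an unadjusted p under 0.05 at 0. It was 11 with no filter on low counts (2.31% of all genes) and 2 with the DESeq2 test (MVD and LSS; 0.607% of all genes), and the cause was not tested. It ranged from 0 to 16 when 1 library was left out, with 6 without VEZF1-WT replicate 2 and 16 without VEZF1-2A replicate 3.

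With the replicate block the number was 14, all higher in VEZF1-WT, and 29 of 32 members were above 0, while 825 of all genes (4.32%) passed. These were 4 of 7 members of the mevalonate arm, 3 of 3 from squalene to lanosterol and 3 of 8 from lanosterol to cholesterol. Each of the other roles held 1. For HMGCS1 the edgeR p was 9.8e-05 with the block (adjusted p 0.154) and 0.0856 by group alone. The numbers of the labels were not shown to pair the libraries, since the deviations of same-numbered libraries correlated across 19111 genes at 0.08, 0.14 and 0.36, and VEZF1-WT replicate 2 correlated best with VEZF1-2A replicate 1 (0.16). Leaving out each number in turn with the block, an alternative chosen after seeing the data, gave 9, 17 and 10 such members (5.56%, 4.55% and 4.47% of all genes), with 26, 30 and 29 of 32 members above 0. The 16 members that share no exon position, another alternative chosen after seeing the data, had a median of 0.10.

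Some log2 fold changes turned in sign when 1 library was left out, most of them without VEZF1-WT replicate 3. They ranged from -0.16 to 0.17 for DHCR7, -0.10 to 0.22 for FADS1, -0.065 to 0.39 for FADS2, -0.10 to 0.20 for HSD17B7, -0.040 to 0.16 for SCD, -0.056 to 0.25 for MVK, -0.024 to 0.31 for FDFT1, -0.014 to 0.21 for FDPS, -0.027 to 0.32 for STARD4, -0.012 to 0.10 for SREBF2, -0.012 to 0.10 for ACLY, -0.00056 to 0.19 for ELOVL6 and -0.13 to 0.12 for ACACB. INSIG1, with 0 to 8 counts per library, allowed no comparison.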
